A study of Saccharomyces cerevisiae with 23 samples.

Results

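The comparison described here is the addition of ZnSO4 to statin-treated budding yeast (Saccharomyces cerevisiae). Its members are the biological samples labelled as statin with ZnSO4 and those labelled as statin with no added metal, 5 of the 17 biological samples of the series and 7 of its 23 arrays. Statin with ZnSO4 had 2 biological samples (replicates 2 and 3, each hybridised on 2 arrays), and none of the 23 arrays is labelled as its replicate 1. Statin alone had 3 biological samples (replicates 1 to 3) on 1 array each. Both groups were a haploid BY4741a strain that carries the pdr5Δ deletion, which removes a plasma membrane drug efflux pump. Both had been precultured with the statin at 5 µg/mL, were resuspended at an OD600 of 0.1 in synthetic complete medium with 2% glucose, the same statin concentration, 0.25 mM EDTA and 0.1% DMSO, and were collected at a nominal OD600 of 0.4. The groups therefore differed by label in the 2 mM ZnSO4 alone, and density at collection was nominally the same. The other groups serve for reference: statin with 1 mM CuSO4, and without statin 2 mM ZnSO4, 1 mM CuSO4 and no addition, the last called untreated, with 3 biological samples each and a nominal collection OD600 of 0.8 without statin. The labels do not name the statin.

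Statins inhibit HMG-CoA reductase, and so the synthesis of mevalonate, from which ergosterol and other isoprenoids are built. Yeast senses its zinc through the activator Zap1, which switches on its own gene and the zinc transporter genes when zinc is scarce, and its iron through the activators Aft1 and Aft2, which switch on genes of iron uptake when iron is scarce. EDTA binds divalent metals, including zinc, copper and iron.

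Each level is a log2 ratio of sample RNA over a common RNA mix of the 6 conditions, so that a difference between groups is a difference of these log2 ratios. Differences are given ± their standard errors, taken from limma's fit over all groups. Adjusted p values come from its two-sided moderated test after Benjamini-Hochberg adjustment over the 5606 genes tested. In bulk RNA, fewer cells expressing a gene and less of its RNA per cell cannot be told apart.

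Spots well above background made up 95.7 to 96.9% on the arrays of statin with ZnSO4 replicate 2 and 81.6 to 85% on those of replicate 3, against 98.4, 96.3 and 77.1% on the arrays of statin replicates 1, 2 and 3. Each replicate number had its own slide, so a comparison was also read within slides 2 and 3. The 2 samples of statin with ZnSO4 were not alike in every gene: over the tested genes they correlated at r = 0.74 with each other, while statin with ZnSO4 replicate 2 correlated at r = 0.90 with statin with CuSO4 replicate 2, which shares its slide. The genes of metal uptake below follow the labels of all 5 samples. The sulfur genes, where the 2 samples stood apart, are given with and without each of them. On 0 of the 7 arrays was the deleted gene PDR5 well above background, and the same held for HIS3, LEU2 and URA3, marker genes missing from this strain background. MET17, a sulfur gene and the other marker of that background, was well above background on 4 of the 7. Mating genes did not separate by this measure. The a-cell genes STE2 and STE6 were well above background on 7 of 7 arrays and AGA2 on 4, and the alpha-cell genes SAG1 on 7, STE3 on 6, MF(ALPHA)2 on 3 and MF(ALPHA)1 on 2.

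Zinc changed the level of 1232 genes in statin-treated cells, 22% of the 5606 tested. Of these, 655 were higher and 577 lower with zinc, 11.7% and 10.3% of the genes tested. A change of at least 2-fold was reached by 191 of the higher and 135 of the lower genes, and one of at least 8-fold by 12 and 11. An unadjusted p under 0.05 in limma's test was reached by 1890 of the 5606 genes. The median difference over all tested genes was 0.01 on the log2 scale. In 1228 of the 1232 genes the samples with zinc lay wholly outside the range of the samples without it. Such groups that do not overlap were seen in 49.4% of all tested genes. Within slide 2 and within slide 3 the difference had the same direction as in the fit for 1231 of the called genes. These slide differences use samples that also gave the calls. Their direction is thus largely set by the selection and is no separate check. Each group rests on 2 or 3 samples, and the count fell to 759 without statin with ZnSO4 replicate 2, to 564 without statin with ZnSO4 replicate 3 and to 817 without statin replicate 1.

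LEU1, the iron-sulfur enzyme isopropylmalate isomerase of leucine synthesis, had the largest rise. Its log2 ratio was 0.69 and 1.17 with zinc, against -4.49, -3.86 and -4.04 with statin alone, a difference of 5.06 ± 0.29 or 33.5-fold (adjusted p = 2.17e-08). The 2 groups were far apart, with every statin sample far below both samples with zinc. The other 14 of the 15 largest rises were in 4 groups of genes, LEU1 itself belonging to the last 2: sulfate assimilation (MET5, SUL2, MET10, MET3, MET14 and MET16), arginine synthesis (ARG1 and ARG3), the branched-chain amino acids (ILV3, BAT1, LEU4 and the mitochondrial carrier OAC1) and mitochondrial or iron enzymes (the cytochrome c peroxidase CCP1 and the biotin synthase BIO2). The largest fall was that of FIT1, a cell wall mannoprotein that retains siderophore-bound iron. FIT1 was at -3.17 and -3.06 with zinc, against 1.75, 1.46 and 1.63 with statin alone, a difference of -4.72 ± 0.19 or 26.4-fold (adjusted p = 5.73e-10). Among the 15 largest falls, 9 were genes of iron uptake or iron release (FIT1, FIT3, ARN2, ENB1, FRE5, FRE2, SIT1, HMX1 and FIT2). The remaining 6 were the zinc transporter gene ZRT1, the copper transporter gene CTR1, the hexose transporter gene HXT5, the spore wall gene SPS100, and the open reading frames YKR104W and YBR116C.

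**Figure D1:**
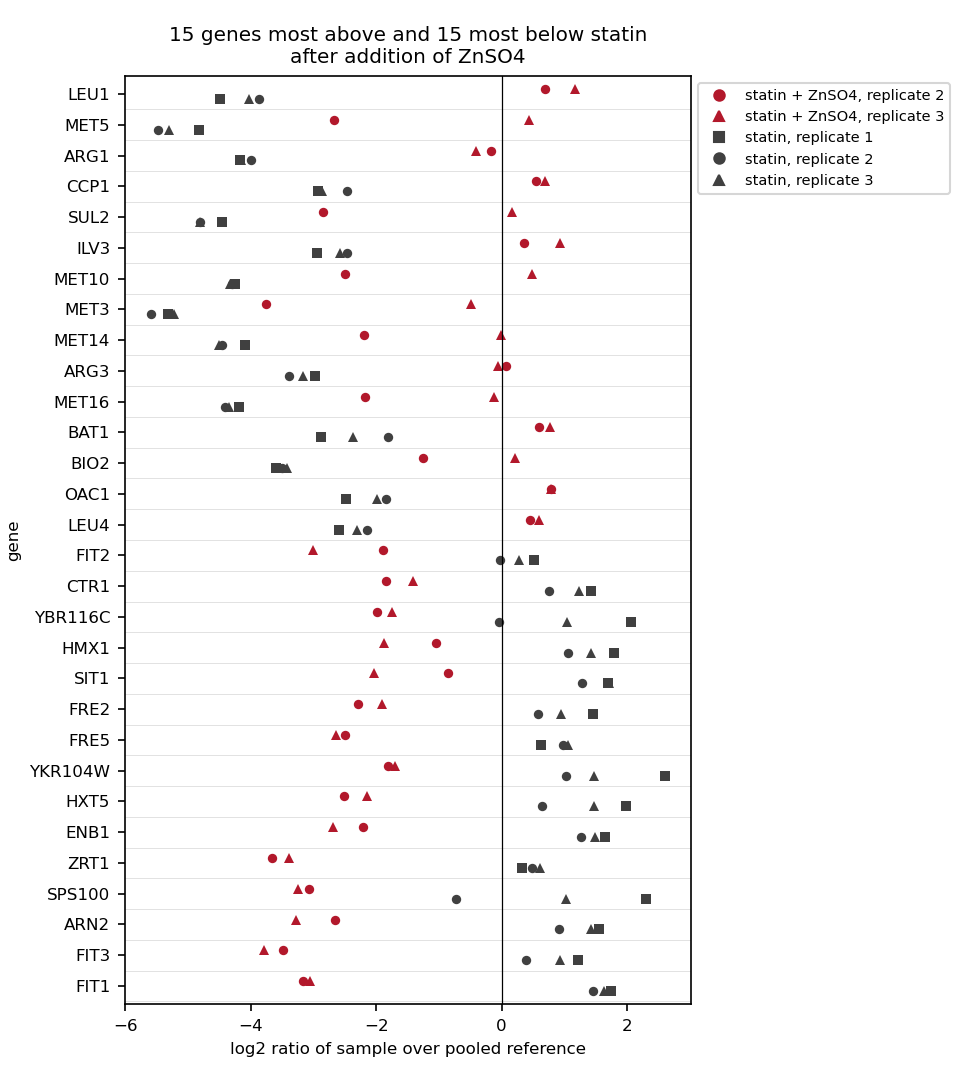
Log2 ratio over the pooled reference (x axis) of the 15 genes with the largest rise and the 15 with the largest fall (y axis), with 1 point per biological sample, statin with ZnSO4 in red and statin in grey. Only called genes whose groups do not overlap were eligible, so the separation of red from grey points follows from the choice. The red points lie right of the grey ones from LEU1 to LEU4 and left of them from FIT2 to FIT1. The red points of the MET genes and SUL2 lie farther apart than those of LEU1 or ARG1.

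The zinc uptake genes were lower with zinc. ZRT1, the high-affinity plasma membrane zinc transporter, was at -3.67 and -3.39 with zinc, against 0.33, 0.49 and 0.61 with statin alone, a difference of -4.01 ± 0.18 (adjusted p = 1.94e-09). The low-affinity transporter gene ZRT2 was at -1.55 and -1.62 with zinc, against 0.85, 1.09 and 0.94 with statin alone, a difference of -2.55 ± 0.18 (adjusted p = 1.34e-07). Neither gene had any overlap between the groups. Of the 15 tested genes in a list of Zap1 targets, 6 fell and 1 rose, with a list median of -0.16. The falls included FET4, a low-affinity transporter of iron and other metals (-2.07 ± 0.19), ZRT3, which releases vacuolar zinc (-1.79 ± 0.14), ZPS1, a cell surface protein (-1.41 ± 0.22), and ZAP1 itself (-1.35 ± 0.21), with adjusted p of at most 0.000301 for these 4. ADH4, an alcohol dehydrogenase gene of the list, went the other way. It was at -0.28 and -0.42 with zinc, against -1.15, -0.74 and -1.06 with statin alone, a rise of 0.63 ± 0.14 (adjusted p = 0.00546). The vacuolar zinc importer gene ZRC1 did not pass (0.03 ± 0.12, adjusted p = 0.876).

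The largest coordinated fall was in iron uptake: 22 of the 25 tested genes of the iron regulon, the targets of Aft1 and Aft2, fell with zinc and none rose, with a list median of -2.32. FIT3, a cell wall protein like FIT1, was at -3.49 and -3.80 with zinc, against 1.22, 0.40 and 0.93 with statin alone, a difference of -4.49 ± 0.29. The siderophore transporter genes ARN2 (-4.27 ± 0.22), ENB1 (-3.91 ± 0.21) and SIT1 (-3.02 ± 0.26) fell too, as did the metalloreductase genes FRE2 (-3.09 ± 0.19) and FRE1 (-2.46 ± 0.25). FRE5, of the same reductase family, fell by 3.45 on the log2 scale, though its spots were well above background on only 2 of the 4 arrays with zinc. The reductive iron uptake pair at the plasma membrane, the ferroxidase FET3 and the permease FTR1, fell as a pair. FET3 was at -1.25 and -1.95 with zinc, against 0.90, 0.58 and 1.00 with statin alone (-2.43 ± 0.20, adjusted p = 6.65e-07), and FTR1 differed by -2.31 ± 0.18 (adjusted p = 3.1e-07). HMX1, a heme oxygenase that frees iron from heme, fell by 2.90, and COT1, a vacuolar importer of cobalt and zinc, by 0.73. The 3 members that did not pass were the copper chaperone ATX1 (-0.46) and the iron-sulfur scaffold genes ISU1 (-0.34) and ISU2 (0.07).

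A chosen list of genes for iron, iron-sulfur and heme enzymes rose. It also holds genes of heme synthesis and the iron transporter gene CCC1, and it does not cover every gene for an iron or heme protein. All 14 tested members of the list passed as higher, with a median of 2.12, and LEU1 led them. ILV3, the iron-sulfur dihydroxyacid dehydratase of valine and isoleucine synthesis, was at 0.35 and 0.93 with zinc, against -2.95, -2.46 and -2.58 with statin alone (3.30 ± 0.25, adjusted p = 2.96e-07). BIO2, biotin synthase, was at -1.25 and 0.21 with zinc, against -3.59, -3.50 and -3.43 with statin alone (2.99 ± 0.31, adjusted p = 6.98e-06). GLT1, glutamate synthase (2.72 ± 0.28), CYC1, cytochrome c (2.65 ± 0.25), SDH2, the iron-sulfur subunit of succinate dehydrogenase (2.21 ± 0.19), LYS4, homoaconitase (2.16 ± 0.27), and CTT1, cytosolic catalase (1.97 ± 0.35), also rose. The smallest rise of the list was that of the aconitase gene ACO1 (0.58). The 2 samples with zinc lay farther apart for BIO2 than for ILV3. Of the biotin genes, BIO3 (1.53 ± 0.27) and BIO4 (1.62 ± 0.19), which make the precursor that BIO2 uses, rose with BIO2, whereas the transporter gene BIO5 did not pass (0.60 ± 0.24, adjusted p = 0.084).

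Mitochondrial respiration genes moved in the same direction. Of 28 tested genes for respiratory chain and ATP synthase subunits, 25 rose and none fell, with a median of 1.27. The mean log2 ratio of these 28 genes was 0.08 and 0.09 with zinc, against -1.21, -1.19 and -1.35 with statin alone, so the 2 samples with zinc were close to each other and apart from the 3 without. The membrane anchor genes of succinate dehydrogenase, SDH4 (2.41 ± 0.18) and SDH3 (2.25 ± 0.17), had the largest rises after CYC1. CCP1, the mitochondrial cytochrome c peroxidase, was at 0.55 and 0.70 with zinc, against -2.93, -2.47 and -2.87 with statin alone (3.38 ± 0.22, adjusted p = 8.97e-08). The 3 subunit genes that did not pass were ATP2 (0.57), ATP3 (0.37) and COX12 (0.56). In the citric acid cycle, 5 of 13 tested genes rose and 2 fell. The 2 that fell encode the subunits of one enzyme, the NAD-dependent isocitrate dehydrogenase. IDH1 was at -1.04 and -0.94 with zinc, against 0.29, -0.13 and 0.05 with statin alone (-1.06 ± 0.16), and IDH2 differed by -1.05 ± 0.14, with adjusted p of 0.000243 and 8.11e-05. CIT2, the peroxisomal citrate synthase (1.03 ± 0.16), and KGD1, of the 2-oxoglutarate dehydrogenase (0.90 ± 0.18), rose.

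Copper uptake genes fell as well, although no copper had been added: 5 of 6 tested genes fell and none rose, with a median of -1.5. CTR1, the high-affinity copper transporter, was at -1.84 and -1.41 with zinc, against 1.42, 0.75 and 1.23 with statin alone, a difference of -2.76 ± 0.28 (adjusted p = 5.48e-06). FRE7, a metalloreductase of the same regulon, fell by 2.31 ± 0.34, with its spots well above background on 2 of the 4 arrays with zinc. CTR2, the vacuolar copper exporter, fell by 0.69 ± 0.11. The copper activator gene MAC1 did not pass (-0.12). CUP1-1, a copper-binding metallothionein that is nearly identical to CUP1-2 and may share signal with it, was at -2.98 and -2.64 with zinc, against -3.45, -3.94 and -3.35 with statin alone, and the difference of 0.77 ± 0.33 did not pass (adjusted p = 0.111). Copper detoxification had 1 called gene among 5, the metallothionein activator CUP2 (-0.44 ± 0.11).

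**Figure D2:**
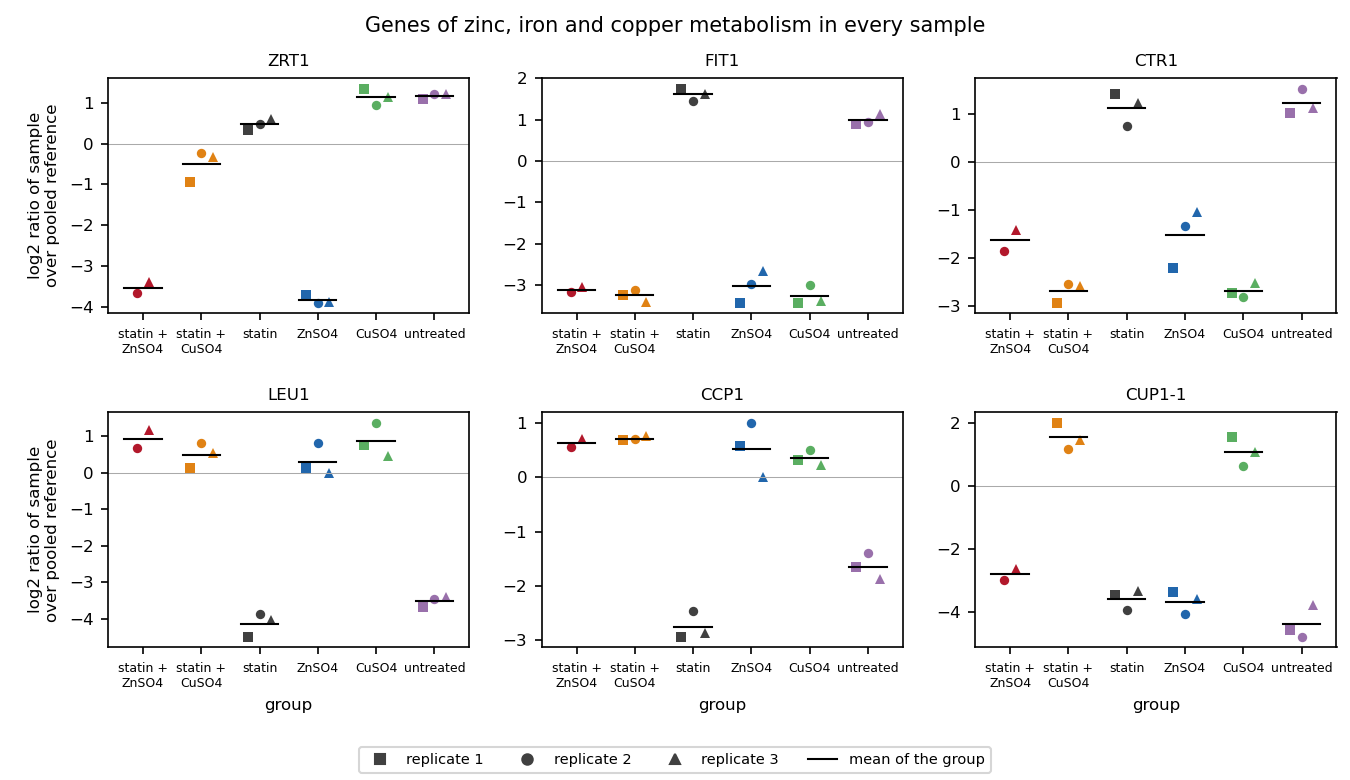
Log2 ratio over the pooled reference (y axes) of 6 metal genes by group (x axes), with 1 point per biological sample and a bar at the group mean. ZRT1 is low only in the groups with ZnSO4, CUP1-1 is high only in the groups with CuSO4, and FIT1, CTR1, LEU1 and CCP1 separate all groups with a metal from statin and untreated.

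Genes of the amino acid pathways listed here mostly rose. These lists were chosen with earlier results of these data known, and breadth over all amino acid pathways was not tested. LEU1, ILV3 and LYS4 also count in the list of iron and heme enzymes. All 9 arginine genes rose, with a median of 2.13. ARG1, argininosuccinate synthetase, was at -0.17 and -0.40 with zinc, against -4.18, -4.00 and -4.15 with statin alone, a difference of 3.82 ± 0.33 (adjusted p = 9.62e-07). ARG3, ornithine carbamoyltransferase, was at 0.07 and -0.05 with zinc, against -2.97, -3.39 and -3.17 with statin alone (3.19 ± 0.30, adjusted p = 2.03e-06). Both genes had narrow groups with a wide gap between them. ARG4, argininosuccinate lyase (2.71 ± 0.24), and ARG56, the precursor of the enzymes for successive steps of the pathway (2.63 ± 0.18), followed. Without statin with ZnSO4 replicate 2 and without replicate 3, all 9 arginine genes still passed.

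All 10 tested genes of branched-chain amino acid synthesis rose, with a median of 2.12. BAT1, the mitochondrial branched-chain aminotransferase, was at 0.60 and 0.77 with zinc, against -2.88, -1.81 and -2.38 with statin alone (3.04 ± 0.29, adjusted p = 2.3e-06). LEU4, the first enzyme of the leucine branch, was at 0.45 and 0.59 with zinc, against -2.59, -2.14 and -2.30 with statin alone (2.87 ± 0.18, adjusted p = 7.42e-08). OAC1, the mitochondrial carrier of oxaloacetate and isopropylmalate, was at 0.79 in both samples with zinc, against -2.48, -1.84 and -1.99 with statin alone (2.90 ± 0.21, adjusted p = 1.79e-07). Lysine synthesis had 8 of 9 tested genes higher, with a median of 1.22, and LYS5 (0.25, adjusted p = 0.39) did not pass. Of the 9, 5 passed without statin with ZnSO4 replicate 3, where the median was 0.90. LYS9, saccharopine reductase, was at -2.0 and -0.68 with zinc, against -3.06, -3.13 and -2.92 with statin alone (1.69 ± 0.32), and LYS1, which carries out the last step, differed by 1.68 ± 0.19. The histidine gene HIS4 was at -1.56 and -0.73 with zinc, against -3.80, -3.70 and -3.65 with statin alone (2.57 ± 0.25, adjusted p = 2.67e-06).

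Sulfate assimilation had the highest list median, 3.21, with 9 of 10 tested genes higher, but its 2 samples with zinc were unlike each other. The mean log2 ratio of the 10 genes was -2.68 in statin with ZnSO4 replicate 2 and -0.11 in replicate 3, against -4.09, -4.34 and -4.33 with statin alone. Both lay above all statin samples, and the distance between them was larger than the whole spread of the statin group. MET3, ATP sulfurylase, was at -3.76 and -0.49 with zinc, against -5.31, -5.60 and -5.22 with statin alone (3.25 ± 1.09, adjusted p = 0.0445). MET16, the reductase of activated sulfate, was at -2.17 and -0.12 with zinc, against -4.18, -4.40 and -4.34 with statin alone (3.17 ± 0.68, adjusted p = 0.00386). MET5 and MET10, the subunits of sulfite reductase, differed by 4.08 ± 0.98 and 3.29 ± 0.90, the sulfate permease gene SUL2 by 3.35 ± 0.98 and MET14, which phosphorylates activated sulfate, by 3.25 ± 0.78. The second permease gene SUL1 did not pass (1.78, adjusted p = 0.29).

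The median difference of the 10 sulfate genes was 1.82 within slide 2 and 4.36 within slide 3. Without statin with ZnSO4 replicate 2 all 10 genes passed, with a median of 4.27, and without replicate 3 none did, with a median of 1.71. With 1 statin sample left out, 6 or 7 of the 10 passed. In the other groups the same mean was 0.23, -3.23 and -0.30 in replicates 1, 2 and 3 of statin with CuSO4, 0.67, 0.68 and 0.75 with ZnSO4 alone, -1.44, -3.0 and -1.41 with CuSO4 alone, and 0.08, -0.17 and 0.17 in untreated cells. Replicate 2 was thus far below the other replicates in statin with ZnSO4, statin with CuSO4 and CuSO4 alone, and the part of the slide or of the culture set in this was not tested.

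In the methionine and S-adenosylmethionine cycle, listed with the homoserine steps that feed it, 12 of the 13 tested genes rose, with a median of 1.72. MET6, methionine synthase, was at -1.23 and 0.16 with zinc, against -3.92, -2.96 and -3.27 with statin alone (2.85 ± 0.55, adjusted p = 0.00192). HOM3, aspartate kinase at the head of the threonine and methionine branch, differed by 2.34 ± 0.29 (adjusted p = 3.12e-05), and SAM1, an S-adenosylmethionine synthetase, by 1.80 ± 0.32 (adjusted p = 0.000871). STR3, a cystathionine lyase, and MET2, homoserine acetyltransferase, differed by 2.74 ± 0.76 and 2.10 ± 0.62. Only 3 of these 13 genes passed without statin with ZnSO4 replicate 3, against 12 without replicate 2. Among 13 regulators and transporters of organic sulfur, 3 rose: the S-adenosylmethionine permease SAM3 (2.55 ± 0.40), the activator MET28 (2.79 ± 0.63) and the methyltransferase SAM4 (1.22 ± 0.31).

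Serine and one-carbon genes had 7 of 11 higher, with a median of 1.09. SHM2, cytosolic serine hydroxymethyltransferase, was at -1.72 and -0.66 with zinc, against -3.64, -2.73 and -3.67 with statin alone (2.15 ± 0.41, adjusted p = 0.00151). GCV1, GCV2 and GCV3, subunits of the glycine cleavage system, differed by 1.27 ± 0.34, 1.39 ± 0.30 and 1.41 ± 0.25. Without statin with ZnSO4 replicate 3 only 2 of the 11 passed. Of 15 genes of phospholipid and inositol synthesis, 6 rose and none fell, with a median of 0.45, among them the inositol transporter gene ITR1 (1.11 ± 0.26), the phosphatidylethanolamine methyltransferase genes CHO2 (0.96 ± 0.20) and OPI3 (0.73 ± 0.21), and the activator gene INO4 (0.80 ± 0.13). Without statin with ZnSO4 replicate 2 only 2 of the 15 passed. INO1, inositol phosphate synthase, was at -0.19 and -1.17 with zinc, against -2.75, -1.31 and -2.15 with statin alone, and its difference of 1.39 ± 0.49 did not pass (adjusted p = 0.0565). Fatty acid synthesis had 1 called gene among 10, the elongase gene ELO3 (0.95 ± 0.23), or 10% higher beside 11.7% of all tested genes.

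Genes of the statin's own pathway rose in part with zinc, and neither gene for HMG-CoA reductase passed. HMG1 was at 0.39 and 0.38 with zinc, against 0.64, 0.66 and 0.61 with statin alone, a difference of -0.25 ± 0.09 (adjusted p = 0.0672), and HMG2 differed by -0.13 ± 0.11 (adjusted p = 0.448). The groups did not overlap for HMG1, and its call depended on the setting: HMG1 passed as lower with the replicate number as a block and with the authors' deposited value table. Of the 9 tested genes of the mevalonate pathway, 3 rose and none fell, with a median of 0.17. These were ERG8, phosphomevalonate kinase (0.91 ± 0.22), IDI1, isopentenyl diphosphate isomerase (0.78 ± 0.11), and ERG10, acetoacetyl-CoA thiolase (0.59 ± 0.18). Of the 9, 1 passed without statin with ZnSO4 replicate 3, and without statin replicate 1 the list median was -0.03.

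From squalene synthesis onward, 5 of 16 ergosterol genes rose and 2 fell, with a median of 0.10. The rises were those of genes around squalene epoxidation and lanosterol, and of heme proteins. ERG11, the heme enzyme lanosterol demethylase, was at 0.88 and 1.14 with zinc, against -0.75, -0.46 and -0.46 with statin alone (1.56 ± 0.21, adjusted p = 7.82e-05). ERG1, squalene epoxidase, was at 1.09 and 1.32 with zinc, against -0.58, -0.03 and 0.24 with statin alone (1.33 ± 0.20, adjusted p = 0.000247). CYB5, cytochrome b5, differed by 1.28 ± 0.14, ERG7, lanosterol synthase, by 1.26 ± 0.19, and ERG5, the second heme enzyme of the pathway, by 0.73. The falls were those of NCP1, the reductase that serves ERG11 and ERG5 (-0.67), and ERG24, the sterol reductase after ERG11 (-0.31). ERG3 and ERG25 did not pass. ERG3, the sterol desaturase, was at 0.71 and 0.87 with zinc, against 0.68, 0.74 and 0.99 with statin alone, so the groups overlapped (-0.02 ± 0.17, adjusted p = 0.963), and ERG25, the sterol methyl oxidase, differed by 0.10 ± 0.15 (adjusted p = 0.714).

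Sterol uptake and anaerobic cell wall genes, which statin alone raised, were partly lower with zinc: 8 of 12 tested genes fell and none rose, with a median of -0.88. AUS1, a sterol-importing ABC transporter, was at -0.42 and -0.52 with zinc, against 1.88, 1.39 and 1.80 with statin alone, a difference of -2.16 ± 0.15 (adjusted p = 9.8e-08). TIR1, a cell wall mannoprotein made under anaerobic conditions, was at -1.07 and -1.46 with zinc, against 1.34, 1.03 and 1.46 with statin alone (-2.54 ± 0.19, adjusted p = 2.37e-07). PBI1 (-1.31 ± 0.15), TIR4, another mannoprotein (-1.28 ± 0.20), PDR11, the second sterol importer (-0.81 ± 0.16), and HES1, a sterol-binding protein (-0.80 ± 0.20), fell by less. UPC2, the activator of sterol genes, was at 0.70 and 1.13 with zinc, against 1.33, 0.81 and 1.5 with statin alone, with overlapping groups (-0.30 ± 0.22, adjusted p = 0.37). Without statin with ZnSO4 replicate 3, 5 of the 12 genes of the list passed.

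Set beside untreated cells, the genes of the list ended at different places. These differences share the statin or the statin with ZnSO4 samples with the ones above and are given as values only. PBI1 was 4.13 ± 0.15 above untreated cells in statin with ZnSO4, and 5.44 above them in statin alone. HES1 was 4.39 ± 0.20 above untreated cells with zinc, and 5.19 above them in statin alone. AUS1 was 0.56 ± 0.15 above untreated cells with zinc and 2.72 above them without it, and TIR1 was below untreated cells with zinc (-1.77 ± 0.19) and above them without it (0.77). Statin alone, against untreated, raised all 12 genes of the list and 15 of the 16 ergosterol genes, beside 18% of all tested genes that rose and 18.8% that fell. ERG11 was 2.48 ± 0.21 above untreated cells with zinc and 0.92 above them in statin alone, so zinc and statin changed it in the same direction, unlike AUS1.

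**Figure D3:**
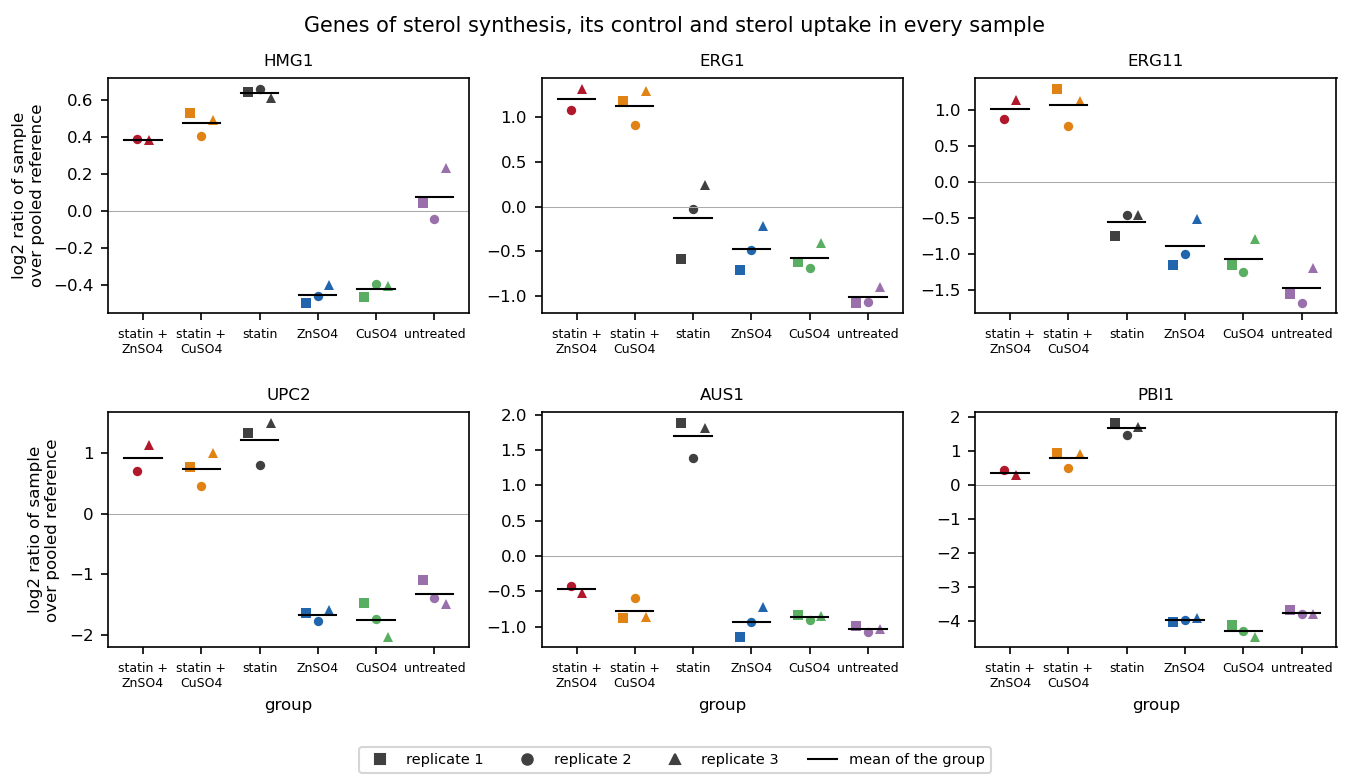
Log2 ratio over the pooled reference (y axes) of 6 sterol genes by group (x axes), with 1 point per biological sample and a bar at the group mean; the scales differ between panels. ERG1 and ERG11 are highest in statin with ZnSO4 and statin with CuSO4, AUS1 is high only in statin alone, and PBI1 and UPC2 stay far above the groups without statin in all 3 groups with it.

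The regulators of sterol and oxygen responses changed less: 2 of 9 fell and none rose. HAP1, the heme-responsive activator, was at -0.14 and 0.32 with zinc, against 1.05, 0.58 and 0.87 with statin alone (-0.75 ± 0.18, adjusted p = 0.00772), and MGA2, an activator of fatty acid desaturation, differed by -0.68 ± 0.17. Of 5 genes known as hypoxic isoforms or hypoxic heme genes, HEM13, coproporphyrinogen oxidase (1.42 ± 0.20), and CYC7, the second cytochrome c (1.15 ± 0.15), rose, and ANB1, a translation factor (-1.08 ± 0.24), and AAC3, an ADP/ATP carrier (-0.78 ± 0.20), fell. ANB1 and AAC3 were well above background on 2 of the 4 arrays with zinc and on 2 of the 3 with statin alone. Of 19 genes that use isoprenoids for tRNA, ubiquinone, dolichol, heme A or protein prenylation, 2 rose and 2 fell, with a median of -0.05. MOD5, which attaches an isopentenyl group to tRNA (0.78 ± 0.15), and COQ6, of ubiquinone synthesis (0.66 ± 0.14), rose. SRT1, a dolichol synthase (-0.76 ± 0.19), and RAM1, a farnesyltransferase subunit (-0.45 ± 0.12), fell. Without statin with ZnSO4 replicate 3, 0 hypoxic and 0 isoprenoid genes passed as lower in limma's test.

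General stress and storage carbohydrate genes fell, 12 of 17 tested and none higher, with a median of -0.87. Of the 17, 7 passed without statin with ZnSO4 replicate 3. GLC3, the glycogen branching enzyme, was at -1.19 and -1.22 with zinc, against 0.47, 0.09 and 0.19 with statin alone (-1.46 ± 0.19, adjusted p = 7.83e-05), and PGM2, phosphoglucomutase, differed by -1.33 ± 0.27. TKL2, a transketolase, was at -1.93 and -1.32 with zinc, against 1.77, -0.08 and 1.00 with statin alone (-2.52 ± 0.54). Statin replicate 2 was the lowest statin sample for TKL2, and it was so for several stress genes. HSP12, a small membrane heat shock protein, was at -1.27 and -1.48 with zinc, against 0.15, -1.67 and -1.04 with statin alone, and did not pass (-0.52 ± 0.49, adjusted p = 0.509). Heat shock and chaperone genes had 8 of 21 lower and none higher, with a median of -0.53. The cytosolic chaperone SSA3 was at -1.52 and -1.25 with zinc, against 1.61, -0.44 and 1.04 with statin alone (-2.12 ± 0.42), and HSP104, a disaggregase, differed by -1.05 ± 0.20. HSP30 (-1.90 ± 0.51) and HSP26 (-1.53 ± 0.45) no longer passed when either zinc sample or statin replicate 1 was left out. The number of heat shock genes called was 2 without statin with ZnSO4 replicate 2 and 3 without statin replicate 1. Of 12 genes of protein folding in the endoplasmic reticulum, 0 passed in limma's test and 0 had an unadjusted p under 0.05, and their median was 0.11.

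Sugar transport fell at 3 of 9 hexose transporter and sensor genes. HXT5, a hexose transporter of slow-growing cells, was at -2.51 and -2.15 with zinc, against 1.99, 0.64 and 1.47 with statin alone (-3.69 ± 0.49, adjusted p = 7.69e-05), and HXT2, a high-affinity transporter, was at -0.74 and -0.77 with zinc, against 2.14, 1.19 and 1.71 with statin alone (-2.43 ± 0.30, adjusted p = 4.03e-05). The glucose sensor gene SNF3 fell by 0.55. Glycolysis and fermentation had 3 of 18 genes lower, ADH1 (-0.52 ± 0.13), PDC1 (-0.47 ± 0.14) and TDH1 (-0.47 ± 0.15). This was 16.7% lower, beside 10.3% of all tested genes. Of the 18, 0 passed in limma's test without statin with ZnSO4 replicate 3, and 1 passed without statin replicate 1, with median centring or with the authors' deposited table. Glucose-repressed genes had 4 of 9 lower, with MLS1, malate synthase (-1.02 ± 0.28), and CAT8, an activator of gluconeogenesis (-0.79 ± 0.18), ahead of ADH2 and PCK1. Of the 9, 2 passed without statin with ZnSO4 replicate 3 or with only the groups compared, and 1 without statin replicate 1.

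Cell wall, drug export and sphingolipid lists held single large changes. SPS100 was at -3.07 and -3.25 with zinc, against 2.29, -0.73 and 1.02 with statin alone, a wide statin group that still lay wholly above the zinc samples (-4.02 ± 0.58, adjusted p = 0.000141). CWP1, a cell wall mannoprotein, was at -1.22 and -1.77 with zinc, against 0.49, 0.34 and 0.42 with statin alone (-1.91 ± 0.23). In all, 3 of 19 cell wall integrity genes fell (15.8%) and 1 rose (5.26%), beside 10.3% and 11.7% of all tested genes. PDR10, an ABC transporter close to the deleted PDR5, was at -0.89 and -1.08 with zinc, against 2.05, 0.50 and 1.41 with statin alone (-2.31 ± 0.31, adjusted p = 8.96e-05). The exporter genes QDR2 (2.15 ± 0.16), PDR12 (1.59 ± 0.20) and YOR1 (0.69 ± 0.13) rose, so that 3 of 12 drug resistance genes rose and 1 fell. Among 15 sphingolipid genes, SUR2, the sphinganine hydroxylase (0.86 ± 0.13), rose and YSR3, a phosphatase of sphingoid base phosphates (-1.19 ± 0.17), and TSC10 (-0.43 ± 0.09) fell. These were 6.67% higher and 13.3% lower, also close to the shares of all tested genes. The phosphate transporter gene PHO84 was at 0.81 and 1.70 with zinc, against -1.67, -0.99 and -0.61 with statin alone (2.35 ± 0.47, adjusted p = 0.00231), and 3 of 14 phosphate genes rose. Of 17 oxidative stress genes, 3 rose, all of them heme enzymes: CCP1, CTT1 and the peroxisomal catalase gene CTA1 (0.99 ± 0.14).

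Ribosome assembly genes rose at 16 of 28, with a median of 0.62 and none lower. DBP3, an RNA helicase, was at 1.01 and 1.15 with zinc, against -0.45, 0.06 and -0.04 with statin alone (1.22 ± 0.23, adjusted p = 0.00172), and NSR1, a nucleolar protein, differed by 1.07 ± 0.29. The count depended on which samples entered: 2 of the 28 passed without statin with ZnSO4 replicate 2, without replicate 3 or without statin replicate 1, with list medians of 0.60, 0.69 and 0.53, and 8 passed without statin replicate 3. Under settings that kept all samples, 10 (authors' deposited table) to 23 (only the groups compared) of the 28 passed. Without statin with CuSO4 replicate 2, 23 passed. Of 138 genes taken by symbol as cytosolic ribosomal protein genes, 0 passed in limma's test. An unadjusted p under 0.05 in that test was reached by 4 of the 138, beside 1890 of all 5606 tested genes. The median of the 138 was 0.19. They include RPP1, a subunit gene of RNase P and not of the ribosome, which had the lowest adjusted p of the list in that test (0.0758). The count of 0 also depended on the setting. With only the groups compared 6 of the 138 passed as higher. Without statin with CuSO4 replicate 2 it was 3, and with first arrays only it was 1. Many ribosomal protein genes exist as near-identical pairs that can share signal on a probe. Of 7 a-cell mating genes, 3 rose, with STE2 as the largest (0.90 ± 0.20), and the a-factor precursor gene MFA1 fell (-0.69 ± 0.20). Of the 7, 0 passed in limma's test without statin with ZnSO4 replicate 2, and with only the groups compared 1 rose and 0 fell. Of 3 tested alpha-cell genes 0 passed in limma's test and 0 had an unadjusted p under 0.05.

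**Figure D4:**
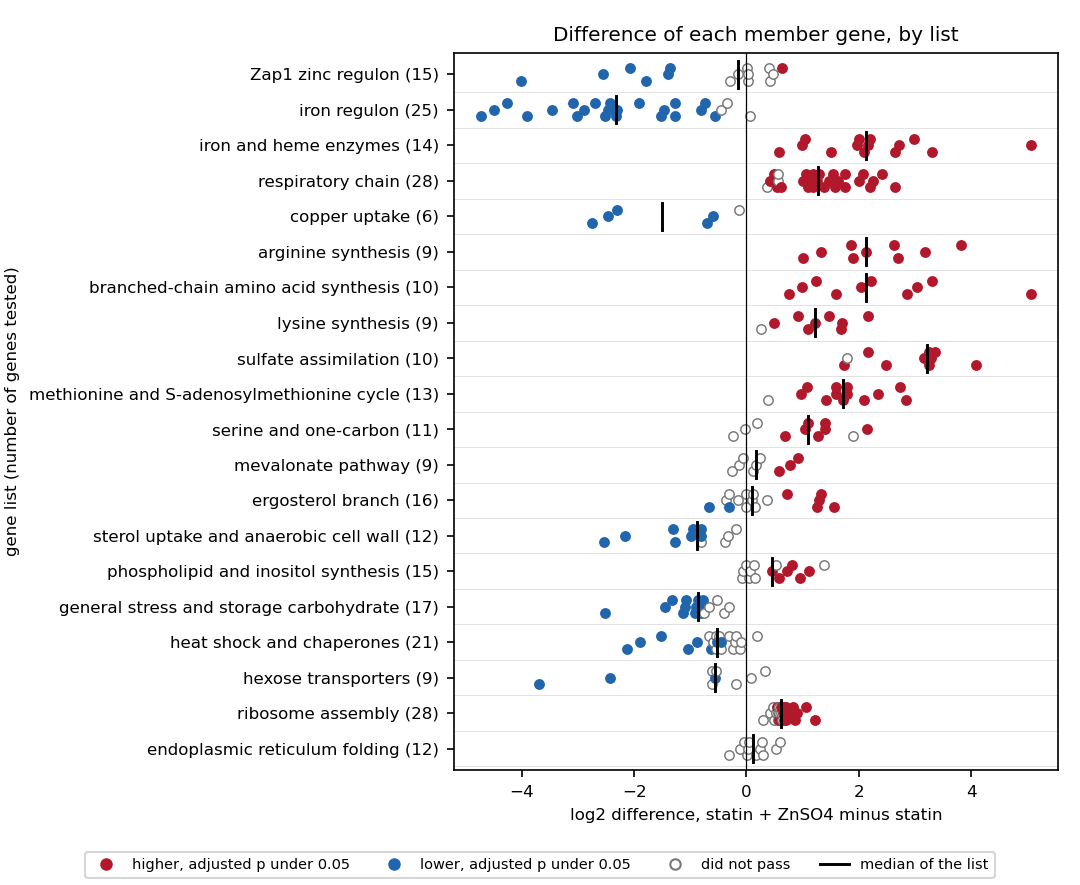
Log2 difference of statin with ZnSO4 minus statin (x axis) for every tested member of 20 gene lists (y axis), filled where the adjusted p was under 0.05 and open where it was not, with a bar at the list median. The iron regulon lies left of 0 with a median of -2.32, and the iron and heme enzymes, arginine and branched-chain lists lie right of it with every member filled.

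Whether zinc acted on the same genes without statin was read from ZnSO4 against untreated, which shares no sample with the comparison above. Both tests use the same estimate of each gene's spread, so their calls are not independent. Zinc alone changed 930 genes, 8.81% of the tested genes higher and 7.78% lower. Of these, 599 were also called in the same direction with statin, which is 48.62% of the 1232 genes called with statin and 64.41% of those called without it, and 2 were called in opposite directions. Over the 5606 genes the 2 sets of differences correlated at r = 0.75, a description across genes of arrays that share the slides and the reference pool. ZRT1 differed by -4.01 and FIT1 by -4.72 with statin, beside -5.0 and -4.01 without it. The iron regulon had 22 of 25 members lower and the iron and heme enzymes 14 of 14 higher without statin as with it, with medians of -1.66 and 1.52. For other lists the counts without statin were as follows. Without statin 0 of the 10 sulfate assimilation genes and 0 of the 13 methionine cycle genes passed in limma's test. At an unadjusted p under 0.05 were 1600 of all 5606 tested genes, and 0 and 1 of these lists. The test of the difference between the 2 zinc effects, given next, passed for 0 of these 10 and 1 of these 13 genes. Without statin 3 of the 9 arginine genes and 1 of the 9 lysine genes rose, whereas 8 of 10 branched-chain genes and 26 of 28 ribosome assembly genes rose.

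The difference between the zinc effects with and without statin was itself tested as an interaction, the effect with statin minus that without. It passed for 58 genes, 1.03% of those tested, with 37 (0.66%) above 0 and 21 (0.375%) below. With the replicate number as a block the count was 103. It was 18 without statin with ZnSO4 replicate 3, 35, 98 and 29 without statin replicate 1, 2 and 3, and 34, 32 and 28 without untreated replicate 1, 2 and 3. Cultures with and without statin were collected at different nominal densities. Their precultures had also started at different ones, an OD600 of 0.09 with statin and 0.01 without. Statin and these densities cannot be told apart in the interaction. Arginine synthesis held 4 of the 37 (ARG1, ARG3, ARG4 and ARG56). ARG1 differed by 3.82 with zinc in statin-treated cells and by 0.74 without statin, where it was at 0.93, 1.37 and 0.26 with zinc, against -0.04, 0.29 and 0.08 in untreated cells. The interaction was 3.08 ± 0.44 (adjusted p = 0.00243). Statin alone differed from untreated by -4.22 in ARG1. LEU4 (2.07 ± 0.25), HIS4 (2.06 ± 0.33), HOM3 (1.93 ± 0.38), LYS1 (1.41 ± 0.25) and LYS21 (1.34 ± 0.23), each of an amino acid pathway, also passed above 0, as did 4 of 28 respiratory chain genes, RIP1, QCR2, QCR6 and QCR10, all of the cytochrome bc1 complex.

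Below 0, 3 of the 21 genes were members of the sterol uptake and anaerobic cell wall list. AUS1 fell with zinc in statin-treated cells (-2.16), but was at -1.14, -0.94 and -0.73 with zinc, against -0.99, -1.07 and -1.03 in untreated cells without statin, and its interaction was -2.26 ± 0.20 (adjusted p = 4.13e-05). PDR11 and PBI1 had interactions of -1.03 ± 0.21 and -1.10 ± 0.20. Another 3 were iron genes whose fall was deeper with statin: ENB1 (-2.12 ± 0.28), FIT3 (-1.73 ± 0.39) and FRE5 (-1.62 ± 0.24). The interaction of FIT3 lost its call in 12 of 18 alternative settings and that of PDR11 in 9, those of ENB1, FRE5 and AUS1 in 0. BIO5 parted from the other biotin genes. It was at 1.30, 1.66 and 1.92 with zinc without statin, against -1.38, -1.0 and -1.59 in untreated cells, a rise of 2.95, whereas it did not pass with statin, and its interaction was -2.34 ± 0.32 (adjusted p = 0.00166). FDH2 and YPL276W, which are nearly identical and may share signal, went the other way: they fell by 2.14 and 2.05 with zinc in cells without statin and did not pass with it, with interactions of 1.96 ± 0.44 and 1.95 ± 0.41 that lost their calls in 13 and 10 of 18 settings.

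**Figure D5:**
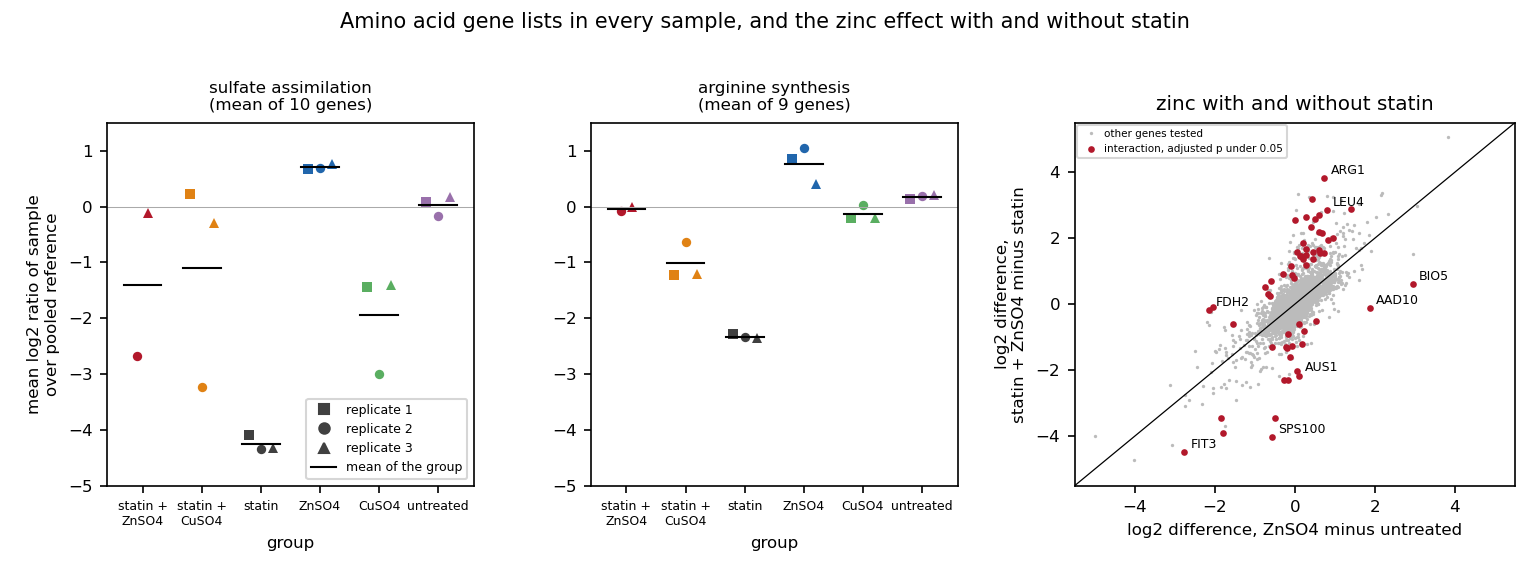
Left and middle, mean log2 ratio over the pooled reference (y axes) of the 10 sulfate assimilation and 9 arginine synthesis genes by group, with 1 point per biological sample and a bar at the group mean; right, log2 difference of each gene for statin with ZnSO4 minus statin (y axis) against ZnSO4 minus untreated (x axis), with the line of equal change and the 58 genes with an interaction in red. The 2 points of statin with ZnSO4 are at -2.68 and -0.11 for sulfate assimilation and almost coincide for arginine synthesis, and ARG1 and AUS1 lie far from the line.

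Zinc and copper were compared directly in statin-treated cells, with no use of the statin samples. Only 27 genes passed, 0.482% of those tested, of which 14 (0.25%) were higher and 13 (0.232%) lower with zinc than with copper. With median centring in place of loess 24 passed, 10 of them higher and 14 lower, and with the fit on these 2 groups alone 4 passed, all of them lower. Without statin with CuSO4 replicate 2, the sample that resembled statin with ZnSO4 replicate 2, 567 genes passed, all 27 among them, and leaving out any other sample of the 2 groups gave 7 to 12. Among the lower genes were those of the metals themselves. CUP1-1 was at -2.98 and -2.64 with zinc, against 1.99, 1.17 and 1.46 with copper (-4.35 ± 0.33, adjusted p = 1.79e-06), and CUP1-2 gave -4.42 ± 0.33. ZRT1 was at -3.67 and -3.39 with zinc, against -0.95, -0.23 and -0.33 with copper (-3.03 ± 0.18), ZRT2 differed by -2.08 ± 0.18 and ZAP1 by -1.47 ± 0.21. HXK1, hexokinase (-1.19 ± 0.24), the membrane protein gene PHM7 (-1.36 ± 0.23), the regulator gene TOS8 (-1.02 ± 0.18), RGS2, a regulator of G-protein signalling (-0.96 ± 0.17), and YHR022C (-1.14 ± 0.22) were lower with zinc too.

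The genes higher with zinc than with copper were led by arginine and lysine synthesis, with 3 of 9 tested genes each. ARG3 was at 0.07 and -0.05 with zinc, against -1.97, -1.28 and -2.34 with copper (1.87 ± 0.30, adjusted p = 0.00955), and LYS20, homocitrate synthase, was at -1.42 and -0.57 with zinc, against -2.81, -2.36 and -3.33 with copper (1.84 ± 0.29, adjusted p = 0.00944). ARG1 differed by 1.58 ± 0.33 (adjusted p = 0.0491), ARG56 by 1.18 ± 0.18 and LYS1 by 0.95 ± 0.19. MAE1, malic enzyme (1.47 ± 0.27), YMC2, a mitochondrial carrier (1.11 ± 0.21), PDR12 (1.09 ± 0.20) and CIT2 (0.92 ± 0.16) were also higher with zinc. Between the metals, 0 of the 25 iron regulon genes, the 14 iron and heme enzymes and the 28 respiratory chain genes passed in limma's test. At an unadjusted p under 0.05 were 5, 4 and 12 of them, beside 741 of all 5606 tested genes. The list medians were 0.14, -0.14 and -0.32. In the iron regulon FIT1 was at -3.17 and -3.06 with zinc, against -3.24, -3.11 and -3.41 with copper, so that the groups overlapped. Other lists lay farther apart between the metals. Ribosome assembly had 0 of 28 genes called, 27 at an unadjusted p under 0.05 in limma's test and a median of 0.64. General stress and storage carbohydrate had 3 of 17 called lower with zinc, 13 at an unadjusted p under 0.05 and a median of -0.85.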

How the data were processed

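Total RNA of each sample was labelled with Cy3 and hybridised with a Cy5-labelled pool of all conditions on 2-colour Agilent arrays, with no dye swap. Spot extraction used version 10.5.1.1 of Agilent's Feature Extraction software, as the submitters' processing notes record. The deposited scanner files give median spot intensity and median background intensity per channel, per the file headers. The authors' deposited value table holds the log10 ratio of the same files with its sign turned (differences of at most 5e-06) and served as an alternative.

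Here intensities were corrected with normexp (offset 50), outlier spots (1309) were left out and ratios were loess-normalized per array. Deposited intensities became log2 ratios of sample over reference. Spots were averaged per probe (2 each) and arrays per biological sample. Tested were the 5606 of 6256 probes with both spots well above background in Cy3 on all arrays of 1 group or more. Of the systematic names, 5756 matched RefSeq's R64 gene table, the source of the symbols, and 500 kept the name in the file. All 17 biological samples in 6 groups entered 1 limma fit (limma 3.58.1, R 4.3.3 and 11 residual degrees of freedom), and genes were called at an adjusted p under 0.05. Figures used matplotlib 3.10.9. The number of samples limits the precision.

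Replicate numbers mark a slide and a biological replicate set, so they pair samples; deviations of statin with ZnSO4 and statin correlated at r = 0.16 in number 2 and 0.32 in number 3. The block was an alternative. Others were median centring, the value table, no filter, only the groups compared, first arrays only, and each sample left out.

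Members and gene lists were chosen with earlier results of these data known. Named are the 15 largest rises and 15 largest falls among called genes whose groups do not overlap, up to 4 called genes with the largest difference per list, a set of metal, sterol and sulfur genes whatever their result, and the 10 largest each way for the interaction and for zinc against copper; for the interaction also any other named gene that passed. List members that alone failed a test, or made up a count of 5 or fewer, were named after their values were seen. Of list members, VEL1, FRE4, PDR18, SPL2, SIP4, HXT8 and MF(ALPHA)2 were not tested and LSO1 matched no probe. Sequences and coordinates are not used here. One gene that the naming rule selects for zinc against copper is not reported here.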

Additional observations from a re-analysis of the deposited data

Results flagged for a closer look

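The zinc effect with statin differed from that without statin, by a test of the interaction (limma, adjusted p under 0.05), for 58 genes, of which the 32 taken by the naming rule follow; each value is the log2 difference with statin minus that without.

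Amino acid genes had interactions above 0: ARG1 3.08 (adjusted p = 0.00243), ARG3 2.75, ARG56 2.35, ARG4 2.09, LEU4 2.07, HIS4 2.06, HOM3 1.93, LYS1 1.41 and LYS21 1.34. So had the S-adenosylmethionine permease gene SAM3 (2.56), the near-identical FDH2 (1.96) and YPL276W (1.95), the carrier gene OAC1 (1.48), the cytochrome c gene CYC7 (1.25), and the exporter genes PDR12 (1.53) and QDR2 (1.47).

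Genes of the sterol uptake and anaerobic cell wall list had interactions below 0: AUS1 -2.26 (adjusted p = 4.13e-05), PBI1 -1.10 and PDR11 -1.03. Metal uptake genes did too: ENB1 -2.12, FRE7 -2.05, FIT3 -1.73 and FRE5 -1.62. The others below 0 were SPS100 (-3.46, adjusted p = 0.0463), YKR104W (-2.96), BIO5 (-2.34), PDR10 (-2.15), YMR317W (-2.08), AAD10 (-2.0), YSR3 (-1.38), ADH1 (-1.05) and CHS1 (-0.72). AAD10 differed by -0.12 with zinc in statin-treated cells and by 1.87 without statin. SPS100 and FDH2 lost the call in 13 of 18 alternative settings, FIT3 and FRE7 in 12, CHS1 in 11, YPL276W and AAD10 in 10, PDR11 in 9, SAM3 in 8 and HOM3 in 7.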

How the results depend on the processing

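Zinc changed 1035 to 1575 genes in statin-treated cells under the settings that kept all samples of the comparison and 564 (without statin with ZnSO4 replicate 3) to 1375 (without statin with CuSO4 replicate 2) with 1 sample left out. It was 759 without statin with ZnSO4 replicate 2 and 817 without statin replicate 1. With the replicate block, for which the numbers pair the samples, 1575 genes passed, HMG1 and CUP1-1 were gained and no named gene of this comparison lost its call. The interaction passed for 58 genes, for 103 with the replicate block (55 of the 58 among them), and for 18 (without statin with ZnSO4 replicate 3) to 98 (without statin replicate 2) with 1 sample left out. Zinc against copper passed for 27 genes, for 4 with only the groups compared, and for 7 (without statin with CuSO4 replicate 1) to 567 (without statin with CuSO4 replicate 2) with 1 sample left out. The cause was not tested. Of 140 called named genes, 91 kept the call under every setting run. The other 49 lost it under at least 1, 14 of them under a setting that kept all samples, and 40 without statin with ZnSO4 replicate 3. Of the 32 interactions taken by the naming rule, 11 passed under every setting, and none of the named differences that passed changed sign. A search of promoter motifs was not run. Slide 3 had fewer spots well above background than slides 1 and 2, so that dim genes there rest on less signal.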
